A study of Mus musculus with 36 samples.

Results

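The genes described here mark the epithelial state and the exchange of one cadherin for another: the cadherins Cdh1 and Cdh2, the surface adhesion molecule Epcam, the keratins Krt8 and Krt18, the claudins Cldn4, Cldn6 and Cldn7, the splicing regulator Esrp1 and the intermediate filament gene Vim. They were taken by symbol, and all 10 of 10 were present among the 51734 gene symbols of the count table. All 10 passed the filter on low counts that left 20511 genes to test. The lowest count of any of them in any library was 132, for Krt18.

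RNA-seq libraries of the E14 line of mouse embryonic stem cells (ESC) and of neural precursor cells (NPC) made from it were compared in 6 groups of 3 libraries. The study asked about the catalytic activity of MLL3 and MLL4 (KMT2C and KMT2D), enzymes that methylate lysine 4 of histone H3 at enhancers, and about MLL2, a related enzyme. The 3 genotypes were wild type (WT), a line named MLL3/4 dCD that has MLL3 and MLL4 without catalytic activity (here dCD), and a line named MLL2 dTAG in which MLL2 bears a degron, a tag through which dTAG-13 sends a protein to degradation (MLL2dTAG). Every group had been given dTAG-13, WT included, and the 3 NPC groups had also been given RA, retinoic acid. For NPC the labels give 2 µM of dTAG-13 from day 1 of differentiation and harvest on day 4, and for ESC the dose and the duration are not given in the sources used here. No comparison isolates dTAG-13, and a change from ESC to NPC holds retinoic acid, time and the change of cell state together. The labels name 1 line per genotype, so what the edit does and what sets one line apart from another cannot be told apart. Loss of a protein through a degron and loss of catalytic activity are not read by RNA counts, so the 2 edits were not checked here.

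In an epithelium, Cdh1 (E-cadherin) joins neighbouring cells at adherens junctions, claudins seal the tight junctions, and Krt8 pairs with Krt18 in the keratin filaments of simple epithelia. Embryonic stem cells carry E-cadherin and Epcam and grow as compact colonies. In the epithelial-mesenchymal transition, and during the formation of the neural plate, E-cadherin gives way to Cdh2 (N-cadherin). Repressors of the Snail and Zeb families bind the E-box CAGGTG in promoters of epithelial genes, Esrp1 keeps epithelial splice forms, and vimentin (Vim) forms the filaments of mesenchymal and neural progenitor cells.

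Promoter windows of 300 bases, from 250 before the start of a gene to its first 50, were taken from RefSeq (GRCm38.p6), where 7 of the 10 genes matched by symbol. They were searched on both strands for CAGGTG, which reads CACCTG on the other strand, because the E-box is the element named above. Of 32841 promoter windows, 20.2% held at least 1 match and 2.88% held 2 or more. The windows of Epcam (chr17:87635729-87636028, plus strand), Cldn4 (chr5:134946885-134947184, minus strand), Krt8 (chr15:102004293-102004592, minus strand) and Krt18 (chr15:102027966-102028265, plus strand) are shown because the first pair fell and the second pair rose from ESC to NPC. Each is written from 5′ to 3′ on the strand of the gene, with the matches in capitals:
Epcam: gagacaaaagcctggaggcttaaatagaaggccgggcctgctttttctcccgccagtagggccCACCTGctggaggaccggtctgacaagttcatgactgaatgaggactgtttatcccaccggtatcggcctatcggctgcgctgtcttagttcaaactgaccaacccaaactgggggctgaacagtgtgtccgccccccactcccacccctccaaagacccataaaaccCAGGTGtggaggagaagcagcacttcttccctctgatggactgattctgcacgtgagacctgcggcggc
Cldn4: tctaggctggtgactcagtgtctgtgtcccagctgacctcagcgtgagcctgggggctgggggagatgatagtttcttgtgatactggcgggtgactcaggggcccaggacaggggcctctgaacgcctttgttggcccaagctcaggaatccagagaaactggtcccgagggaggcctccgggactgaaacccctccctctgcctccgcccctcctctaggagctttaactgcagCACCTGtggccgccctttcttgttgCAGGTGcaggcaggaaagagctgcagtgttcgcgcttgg
Krt8: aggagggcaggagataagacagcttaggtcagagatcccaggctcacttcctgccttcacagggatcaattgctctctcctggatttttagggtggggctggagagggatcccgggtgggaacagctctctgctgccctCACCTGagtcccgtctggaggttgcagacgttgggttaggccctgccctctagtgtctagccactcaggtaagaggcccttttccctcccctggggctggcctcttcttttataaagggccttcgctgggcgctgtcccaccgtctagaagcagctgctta
Krt18: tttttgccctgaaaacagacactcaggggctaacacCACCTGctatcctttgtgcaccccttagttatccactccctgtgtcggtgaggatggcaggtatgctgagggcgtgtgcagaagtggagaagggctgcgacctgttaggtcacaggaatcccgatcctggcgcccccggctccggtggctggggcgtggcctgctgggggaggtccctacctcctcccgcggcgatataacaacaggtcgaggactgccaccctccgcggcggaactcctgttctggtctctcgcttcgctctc
Epcam had matches that began 187 and 19 bases before its start, and Cldn4 had one 14 bases before and one in transcribed sequence, at base 12. Krt8 had 1 match, 111 bases before its RefSeq start, and Krt18 had 1, 214 bases before its own. The GENCODE annotation starts both keratin genes further upstream. On the minus strand its Krt8 gene begins at 102004482, so the Krt8 match lies within that gene. The window of Cldn6 held 2 matches, one of the 2 windows of Cldn7 held 2 and the other 0, and the window of Vim held 0. A match to these letters is a description of the sequence and was present in windows of genes that fell and of genes that rose.

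In the GENCODE annotation of GRCm38, Cdh1 lies at chr8:106603351-106670246 (plus strand), Epcam at chr17:87635979-87651129 (plus strand) and Esrp1 at chr4:11331933-11386783 (minus strand). The claudin genes lie at chr5:134945119-134946934 (Cldn4, minus strand), chr17:23679249-23682446 (Cldn6, plus strand) and chr11:69964779-69967885 (Cldn7, plus strand). Vim lies at chr2:13573927-13582826 (plus strand), and all 10 genes are protein-coding. The counts are of whole genes and do not separate exons or transcripts.

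Total counts per library ranged from 19.4 to 46 M, and 3 counts came to 0.0652 to 0.154 CPM on those totals. All other CPM values are counts scaled to TMM-adjusted totals. Libraries of one group are numbered as replicates, but nothing in the labels says that they came from separate cultures, so p-values measure the spread between these libraries. Of 8 pluripotent cell markers, 8 fell from ESC WT to NPC WT, and of 8 neural progenitor markers 7 rose, where 40.4% of all genes were called lower and 39.1% higher. Sox1, a defining neural marker, was at 3.05 ± 0.460 CPM in ESC WT and 3.10 ± 0.240 in NPC WT (SD, n = 3), and was not called, while Pax6 was at 1.75 ± 0.613 and 38.9 ± 1.16. All 10 of 10 endoderm markers rose as well, and their summed level was 63.6 to 66.3 CPM in ESC WT and 448 to 462 in NPC WT. Most of the NPC WT sum came from Dab2, at 204 ± 4.15 CPM, and Gata6, at 127 ± 3.05. Afp was at 0.851 ± 0.155 CPM there, and all of these were named after their values were seen. In bulk RNA, fewer cells of a type and less RNA per cell cannot be told apart.

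From ESC WT to NPC WT the 2 cadherins moved in opposite directions: Cdh1 fell 7.48-fold and Cdh2 rose 19.5-fold. Epcam, Esrp1 and the 3 claudins fell with Cdh1, and Krt8 and Krt18 rose with Cdh2. Of the 10 genes, 4 were called higher and 6 lower at an edgeR adjusted p under 0.05, Vim being the fourth of the higher ones, with a change of 0.076 whose direction turned under other settings. In this comparison 39.1% of the 20511 genes tested were called higher and 40.4% lower, so that a call by itself was common. The median log2 fold change of the 10 genes was -0.68, against -0.037 over all genes, whose median absolute change was 0.88. In dCD, 5 were called higher and 5 lower (38.7% and 39.0% of all genes), and in MLL2dTAG 3 were called higher and 7 lower (39.9% and 38.3% of all genes). The medians were -0.016 in dCD, against -0.018 over all genes, and -0.78 in MLL2dTAG, against 0 over all genes.

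**Figure D1:**
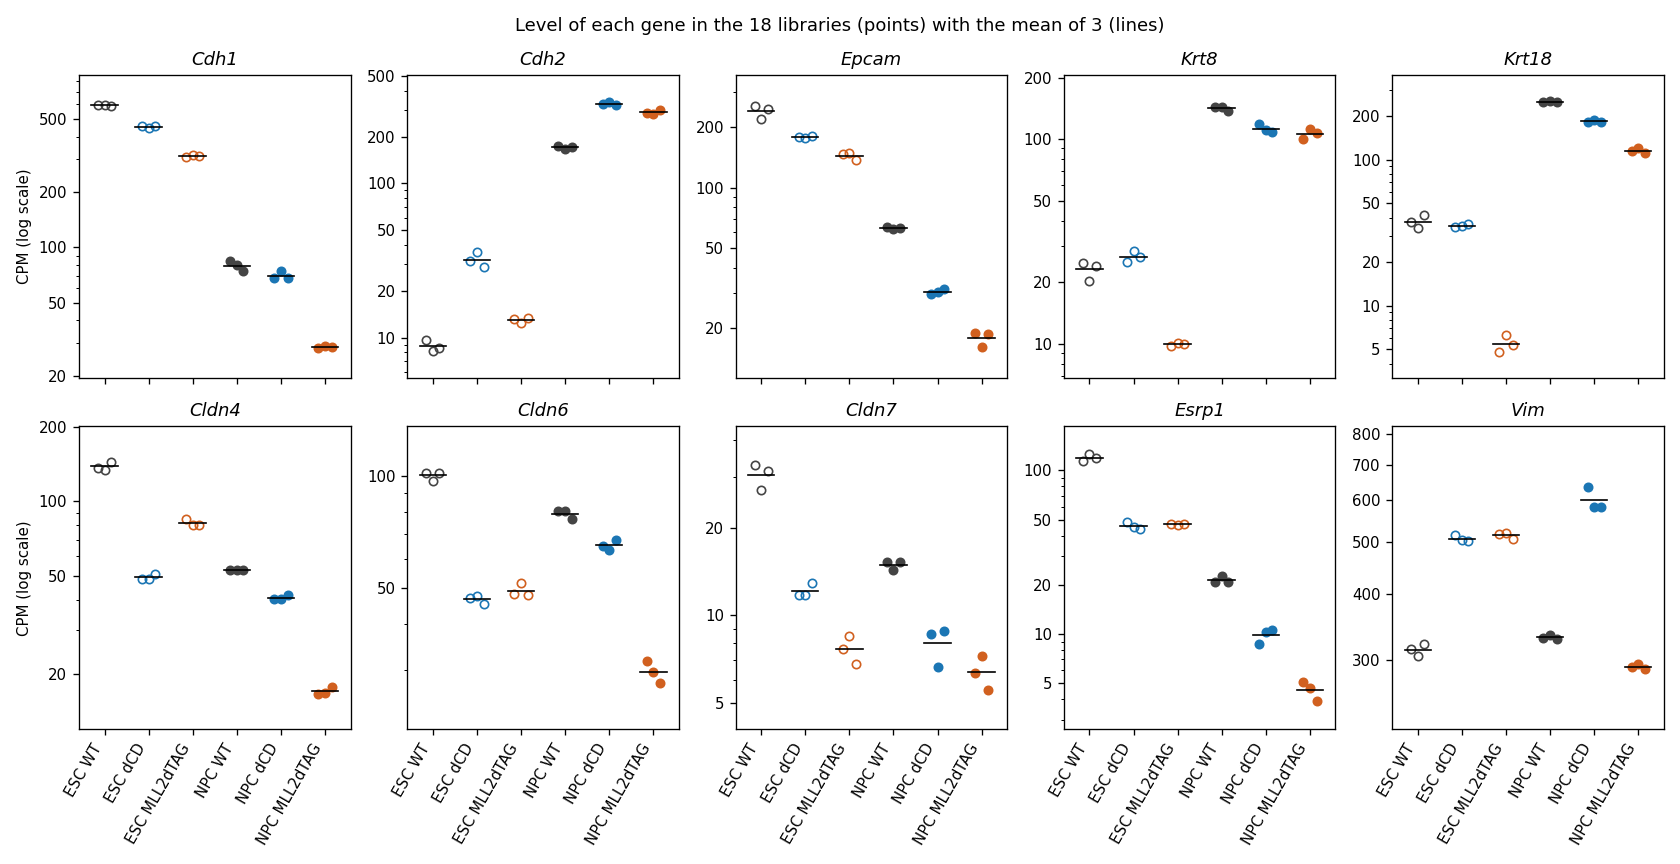
The 10 panels plot CPM on a log scale for each gene, with 1 point per library (open for ESC, filled for NPC) and a line at the mean of 3; grey is WT, blue dCD and orange MLL2dTAG. Cdh1 stepped down from 592 CPM in ESC WT to 28.7 in NPC MLL2dTAG, while Cdh2 ran from 8.79 in ESC WT to 329 in NPC dCD.

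Cdh1 was at 595, 595 and 587 CPM in the WT libraries of ESC, at 454, 443 and 458 in those of dCD and at 308, 316 and 313 in those of MLL2dTAG. The NPC libraries held 83.8, 79.7 and 73.8 CPM in WT, 68.2, 74.1 and 67.8 in dCD and 28.2, 29.1 and 28.8 in MLL2dTAG. Every ESC library was above every NPC library, and within each stage WT was highest on average and MLL2dTAG lowest, with an overlap between NPC WT and NPC dCD. The log2 fold change from ESC to NPC was -2.90 (SE 0.040, edgeR adjusted p = 1.01e-36) in WT, -2.69 (SE 0.040) in dCD and -3.44 (SE 0.043) in MLL2dTAG. Against WT, Cdh1 was lower in MLL2dTAG, at -0.92 (SE 0.036, edgeR adjusted p = 1.43e-21) in ESC and -1.46 (SE 0.043, edgeR adjusted p = 1.4e-25) in NPC on the log2 scale. The dCD line differed less from WT, with -0.39 (SE 0.036, edgeR adjusted p = 3.51e-11) in ESC and -0.17 (SE 0.040, edgeR adjusted p = 0.000362) in NPC. The direct difference, dCD minus MLL2dTAG, was 0.53 (SE 0.036) in ESC and 1.29 (SE 0.044) in NPC, both called.

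Cdh2 was at 9.69, 8.19 and 8.50 CPM in the WT libraries of ESC, at 31.4, 36.0 and 28.5 in those of dCD and at 13.2, 12.4 and 13.5 in those of MLL2dTAG. The NPC libraries held 176, 167 and 171 CPM in WT, 329.6, 337 and 322 in dCD and 286, 282 and 299 in MLL2dTAG. No 2 groups overlapped at either stage, and both edited lines were above WT in ESC and in NPC. Cdh2 was 3.63-fold higher in ESC dCD than in ESC WT, a log2 fold change of 1.88 (SE 0.073, edgeR adjusted p = 9.01e-21). In ESC MLL2dTAG the change was 0.58 (SE 0.081, edgeR adjusted p = 1.25e-07). In NPC the changes were 0.94 (SE 0.044, edgeR adjusted p = 1.45e-19) in dCD and 0.75 (SE 0.044, edgeR adjusted p = 4.17e-17) in MLL2dTAG. From ESC to NPC, Cdh2 rose by 4.30 (SE 0.063) in WT, 3.37 (SE 0.052) in dCD and 4.47 (SE 0.057) in MLL2dTAG. Cdh2 was thus higher in dCD than in MLL2dTAG, by 1.29 (SE 0.065) in ESC and 0.19 (SE 0.043) in NPC, while Cdh1 was also higher in dCD. Gm15485, annotated antisense to Cdh2, had at most 3 counts in any library.

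Per length of their exons, Cdh1 was at 129 ± 1.04 CPM per kilobase in ESC WT and Cdh2 at 1.09 ± 0.0980 (mean ± SD, n = 3). In NPC WT the levels were 17.3 ± 1.10 for Cdh1 and 21.2 ± 0.525 for Cdh2. In NPC MLL2dTAG they stood at 6.27 ± 0.0937 and 35.8 ± 1.11, so that the order of the cadherins was reversed in all 3 NPC groups but in none of the ESC groups. In ESC dCD, where Cdh2 was highest among the ESC groups, Cdh1 was at 98.8 ± 1.69 and Cdh2 at 3.96 ± 0.465 CPM per kilobase.

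The log2 ratio of Cdh2 counts to Cdh1 counts within a library does not depend on library scaling. Without correction for length it was -5.94, -6.18 and -6.11 in WT, -3.85, -3.62 and -4.0 in dCD and -4.55, -4.67 and -4.54 in MLL2dTAG among ESC. In NPC it was 1.07, 1.07 and 1.21 in WT, 2.27, 2.18 and 2.25 in dCD and 3.34, 3.28 and 3.38 in MLL2dTAG. No groups overlapped. The ratio was higher in NPC than in ESC by 7.19 (SE 0.087) in WT, 6.06 (SE 0.11) in dCD and 7.91 (SE 0.051) in MLL2dTAG. Both edited lines had a higher ratio than WT at both stages, in ESC by 2.25 (SE 0.13) in dCD and 1.49 (SE 0.083) in MLL2dTAG. In NPC the order of the lines was the other way round, with 1.12 (SE 0.056) in dCD and 2.21 (SE 0.057) in MLL2dTAG. With 3 libraries against 3 the two-sided exact permutation test cannot go below 0.1, and each of the 9 comparisons gave that smallest value (0.1 also after Benjamini-Hochberg adjustment over the 9).

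**Figure D2:**
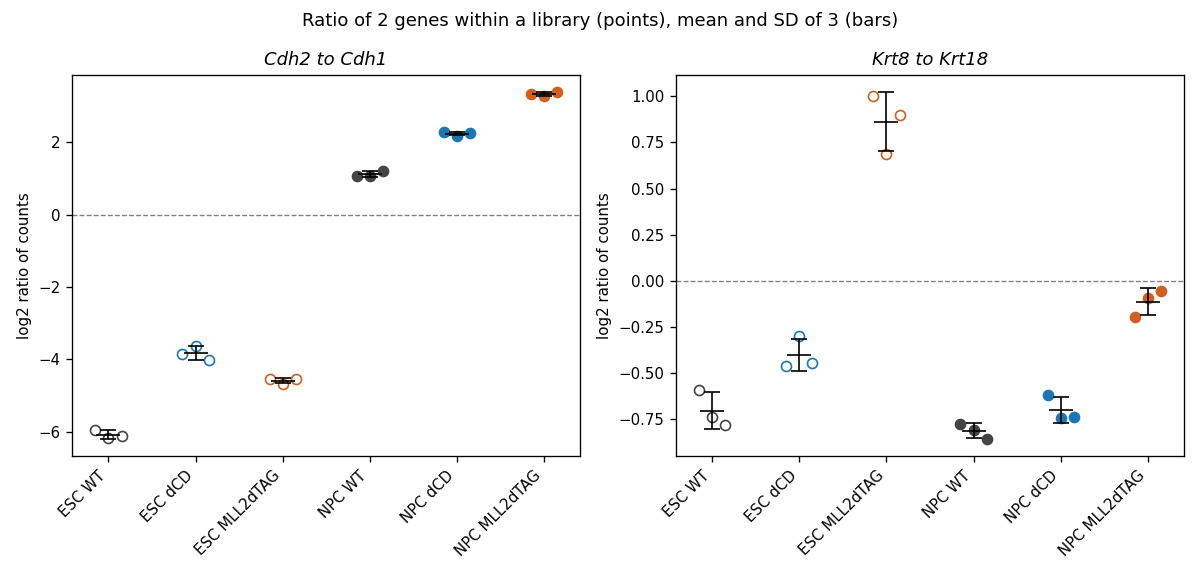
The panels plot the log2 ratio of counts of Cdh2 to Cdh1 (left) and of Krt8 to Krt18 (right) in each library (points), with the mean and SD of 3 (bars). The cadherin ratio was below 0 in all 9 ESC libraries and above 0 in all 9 NPC libraries, and the keratin ratio was above 0 only in the 3 libraries of ESC MLL2dTAG.

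The keratins Krt8 and Krt18 rose on differentiation in all 3 lines. Cdh1, Epcam, Esrp1 and the claudins fell, except for Cldn6 in dCD, which rose. Krt8 was at 24.8, 20.3 and 24.1 CPM in the WT libraries of ESC, at 25.0, 28.4 and 26.5 in those of dCD and at 9.71, 10.1 and 10 in those of MLL2dTAG. Among NPC it stood at 144, 143 and 138 CPM in WT, 118, 111 and 109 in dCD and 100.2, 112 and 107 in MLL2dTAG. The 3 ESC MLL2dTAG libraries were the lowest of all 18, and NPC dCD overlapped with NPC MLL2dTAG. The rise from ESC to NPC was 2.63 (SE 0.057, edgeR adjusted p = 1.39e-30) in WT, 2.08 (SE 0.057) in dCD and 3.42 (SE 0.063) in MLL2dTAG on the log2 scale. In ESC MLL2dTAG Krt8 was lower than in WT, at -1.20 (SE 0.074, edgeR adjusted p = 4.71e-16), and in NPC the changes against WT were -0.33 (SE 0.048) in dCD and -0.41 (SE 0.047) in MLL2dTAG, both called. In ESC dCD it was called higher at 0.22 (SE 0.067, edgeR adjusted p = 0.00731). That call was lost without replicate 2 of ESC WT (0.13, edgeR adjusted p = 0.119), without replicate 2 of ESC dCD (0.17, edgeR adjusted p = 0.0613) and in a fit of the 2 groups compared alone (0.20, edgeR adjusted p = 0.06).

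Krt18, the partner of Krt8 in one filament, had the widest range of the 10 genes, with a mean 45.3 times higher in NPC WT than in ESC MLL2dTAG. It was at 37.3, 33.9 and 41.4 CPM in the WT libraries of ESC, at 34.3, 34.9 and 36.1 in those of dCD and at 4.84, 6.27 and 5.38 in those of MLL2dTAG. In NPC the levels were 247, 250.0 and 249 CPM in WT, 182, 185 and 181 in dCD and 115, 119 and 111 in MLL2dTAG. ESC WT and ESC dCD overlapped, and no other pair of groups compared did. The rise from ESC to NPC was 2.73 (SE 0.051, edgeR adjusted p = 1.04e-32) in WT, 2.38 (SE 0.051) in dCD and 4.38 (SE 0.066) in MLL2dTAG. The line with the lowest ESC level therefore had the largest rise, and it remained the lowest NPC group. Against WT, the changes in MLL2dTAG were -2.77 (SE 0.074, edgeR adjusted p = 2.43e-26) in ESC and -1.11 (SE 0.044, edgeR adjusted p = 1.01e-21) in NPC. In dCD they were -0.44 (SE 0.044, edgeR adjusted p = 6.8e-11) in NPC and -0.10 (SE 0.057) in ESC, where the gene was not called (edgeR adjusted p = 0.172, 95% interval -0.21 to 0.020). Without replicate 2 of ESC WT that change was -0.17 and was called (edgeR adjusted p = 0.0087).

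Krt8 (chr15:101996698-102004482, minus strand, GRCm38) and Krt18 (chr15:102028180-102032027, plus strand) are neighbours, 23697 bases apart with 0 protein-coding genes between them. The log2 ratio of Krt8 to Krt18 was -0.70 ± 0.10 in WT, -0.40 ± 0.089 in dCD and 0.86 ± 0.16 in MLL2dTAG among ESC (mean ± SD, n = 3). In NPC it was -0.81 ± 0.041 in WT, -0.70 ± 0.070 in dCD and -0.11 ± 0.073 in MLL2dTAG. The mean of ESC MLL2dTAG was 1.57 (SE 0.11) above that of ESC WT, and the mean of NPC MLL2dTAG 0.70 (SE 0.048) above that of NPC WT, with no overlap of the libraries. Of 9 comparisons, 8 gave the smallest exact permutation p of 0.1 (0.113 after Benjamini-Hochberg adjustment over the 9), and NPC WT against ESC WT gave an exact p of 0.2, with a difference of -0.11 (SE 0.063). Gm36026, annotated on the opposite strand of Krt8, was not matched in the table.

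The keratins Krt7 and Krt19 of other simple epithelia, chosen after their values were seen, moved in the same directions as Krt8 and Krt18 in these 2 comparisons. Krt19 was at 18.8 ± 2.57 CPM in ESC WT, 4.04 ± 0.238 in ESC MLL2dTAG and 135 ± 6.57 in NPC WT, and Krt7 was at 6.39 ± 1.01, 0.805 ± 0.126 and 53.1 ± 1.49. Krt19 rose from ESC WT to NPC WT by 2.86 (SE 0.070, edgeR adjusted p = 6.09e-29) and Krt7 by 3.04 (SE 0.082, edgeR adjusted p = 8.26e-28). In ESC MLL2dTAG Krt19 was lower than in WT, at -2.20 (SE 0.11, edgeR adjusted p = 5.83e-19), and so was Krt7, at -3.00 (SE 0.15, edgeR adjusted p = 2.25e-18). Of the 13 other keratins and intermediate filament genes on the list, 8 rose and 5 fell from ESC WT to NPC WT. Among all genes 39.1% rose and 40.4% fell there. In ESC MLL2dTAG 4 of the 13 were higher and 7 lower than in WT, where 28.7% of all genes were higher and 28.2% lower. Krt17 had the largest fall on differentiation of WT, from 4.40 ± 1.13 to 0.294 ± 0.145 CPM, at -3.86 (SE 0.32, edgeR adjusted p = 3.45e-13). On differentiation 10 of 10 endoderm markers rose in each line, where 39.1% of all genes rose in WT, 38.7% in dCD and 39.9% in MLL2dTAG. Their summed level was 345 to 351 CPM in NPC dCD and 871 to 898 in NPC MLL2dTAG, against 44.2 to 50.7 and 75.3 to 79.4 in the ESC of these lines. Among the NPC groups, MLL2dTAG had the highest endoderm sum and the lowest Krt18. The summed trophectoderm markers, of which Krt7 is one, were at 81.5 to 91.4 CPM in ESC WT and 78.2 to 83.2 in NPC WT. These sums hold opposite changes, as 4 of the 7 markers rose and 3 fell, where 39.1% of all genes rose and 40.4% fell. Tfap2c was at 71.2 ± 3.50 CPM in ESC WT and 3.53 ± 0.496 in NPC WT, and Gata3 at 0.192 ± 0.0801 and 20.9 ± 1.78. Both were named after their values were seen. The part of endoderm or trophectoderm cells in the keratin levels was not tested.

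Epcam, a homophilic adhesion molecule of epithelia and pluripotent cells, was at 254, 221 and 245 CPM in the WT libraries of ESC, at 178, 176 and 180.2 in those of dCD and at 147, 148 and 137 in those of MLL2dTAG. NPC libraries held 63.8, 62.2 and 63.0 CPM in WT, 29.8, 30.4 and 31.3 in dCD and 19, 16.2 and 18.7 in MLL2dTAG. The 6 groups stood in the same order as for Cdh1 and none overlapped. From ESC to NPC Epcam was lower, at -1.93 (SE 0.047, edgeR adjusted p = 5.13e-29) in WT, -2.55 (SE 0.051, edgeR adjusted p = 1.28e-31) in dCD and -3.01 (SE 0.054, edgeR adjusted p = 2.53e-33) in MLL2dTAG on the log2 scale. In ESC the changes against WT were -0.43 (SE 0.045) in dCD and -0.74 (SE 0.045) in MLL2dTAG. In NPC both were larger, at -1.05 (SE 0.052) and -1.81 (SE 0.055), and all 4 were called. The difference of the change between stages was itself called in both lines, at -0.62 (SE 0.069, edgeR adjusted p = 2.68e-09) in dCD and -1.08 (SE 0.071, edgeR adjusted p = 4.17e-15) in MLL2dTAG.

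Esrp1 encodes an RNA-binding protein that sets epithelial exon choices. It was at 114, 126 and 119 CPM in the WT libraries of ESC, at 48.1, 45.1 and 44.1 in those of dCD and at 47.3, 46.3 and 46.8 in those of MLL2dTAG. The NPC levels were 20.8, 22.6 and 20.8 CPM in WT, 8.71, 10.3 and 10.6 in dCD and 5.07, 4.68 and 3.89 in MLL2dTAG. Both edited ESC lines were well below ESC WT and overlapped with each other. The changes against WT in ESC were -1.39 (SE 0.057, edgeR adjusted p = 3.37e-20) in dCD and -1.35 (SE 0.056, edgeR adjusted p = 5.34e-21) in MLL2dTAG, and their difference, dCD minus MLL2dTAG, was -0.032 (SE 0.059) with a 95% interval of -0.15 to 0.088 (edgeR adjusted p = 0.695). In NPC they separated, at -1.12 (SE 0.074, edgeR adjusted p = 2.55e-15) in dCD and -2.24 (SE 0.082, edgeR adjusted p = 7.55e-23) in MLL2dTAG, and the difference was 1.12 (SE 0.092). From ESC to NPC, Esrp1 fell by 2.48 in WT, 2.21 in dCD and 3.37 in MLL2dTAG on the log2 scale. Gm26663, on the opposite strand of Esrp1, had at most 53 counts, against at most 3788 for Esrp1.

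The claudins, which form the strands of tight junctions, were lower than WT in both edited lines at both stages, all 12 differences being called. Before differentiation, a lower call was given to 22.6% of all genes for dCD and to 28.2% for MLL2dTAG. After it, these shares came to 26.8% and 28.4%. The 12 differences share WT libraries and repeat the same genes, so they are not independent. Cldn4 was at 137, 134 and 145 CPM in the WT libraries of ESC, at 48.7, 48.5 and 50.7 in those of dCD and at 84.8, 80.2 and 80.1 in those of MLL2dTAG. After differentiation it was at 52.8, 52.8 and 52.7 CPM in WT, 40.2, 40.3 and 41.8 in dCD and 16.6, 16.7 and 17.6 in MLL2dTAG. The lower of the edited lines was dCD in ESC and MLL2dTAG in NPC. Against WT the changes of dCD were -1.49 (SE 0.043, edgeR adjusted p = 5.76e-24) in ESC and -0.37 (SE 0.044, edgeR adjusted p = 5.65e-09) in NPC. Those of MLL2dTAG were -0.76 (SE 0.041, edgeR adjusted p = 7.93e-18) in ESC and -1.63 (SE 0.048, edgeR adjusted p = 1.35e-25) in NPC. The direct difference, dCD minus MLL2dTAG, accordingly changed sign, from -0.73 (SE 0.044) in ESC to 1.26 (SE 0.049) in NPC. Cldn4 fell from ESC to NPC by 1.39 in WT and 2.26 in MLL2dTAG, but by 0.27 in dCD, on the log2 scale.

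Cldn6, a claudin of early embryonic epithelia, was at 102, 97.0 and 102 CPM in the WT libraries of ESC, at 46.9, 47.8 and 45.3 in those of dCD and at 48.3, 51.5 and 47.9 in those of MLL2dTAG. In NPC it was at 80.5, 80.5 and 77.0 CPM in WT, 65.1, 63.2 and 67.3 in dCD and 31.8, 29.7 and 27.8 in MLL2dTAG. From ESC to NPC it fell in WT, at -0.34 (SE 0.045, edgeR adjusted p = 1.66e-08), and in MLL2dTAG, at -0.73 (SE 0.050, edgeR adjusted p = 1.25e-15), but rose in dCD, at 0.48 (SE 0.049, edgeR adjusted p = 3.73e-11). Against WT the changes were -1.11 (SE 0.048) in dCD and -1.03 (SE 0.047) in MLL2dTAG in ESC, and the lines did not differ past the threshold (dCD minus MLL2dTAG 95% interval -0.18 to 0.023, edgeR adjusted p = 0.207). In NPC the changes were -0.28 (SE 0.045) and -1.42 (SE 0.048), with a difference of 1.13 (SE 0.049).

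Cldn7 was the least abundant of the 3 claudins, at 15.6 ± 1.58 CPM per kilobase in ESC WT against 76.3 ± 3.11 for Cldn4 and 58.5 ± 1.83 for Cldn6. It was at 32.8, 26.9 and 31.4 CPM in the WT libraries of ESC, at 11.8, 11.7 and 12.9 in those of dCD and at 7.66, 8.51 and 6.81 in those of MLL2dTAG. Among NPC it stood at 15.3, 14.3 and 15.3 CPM in WT, 8.62, 6.62 and 8.86 in dCD and 6.32, 7.27 and 5.53 in MLL2dTAG. Both WT groups lay above the edited lines of their stage. Against WT the changes in ESC were -1.32 (SE 0.10, edgeR adjusted p = 2.52e-13) in dCD and -1.99 (SE 0.10, edgeR adjusted p = 2.68e-18) in MLL2dTAG, and in NPC -0.90 (SE 0.10, edgeR adjusted p = 2.98e-09) and -1.22 (SE 0.11, edgeR adjusted p = 1.76e-12). From ESC to NPC, Cldn7 fell by 1.02 in WT and 0.60 in dCD on the log2 scale. In MLL2dTAG, where the 2 stages overlapped, the change was -0.25 (SE 0.12, edgeR adjusted p = 0.0447). That call was lost without replicate 1 or 2 of ESC MLL2dTAG and without replicate 1 or 3 of NPC MLL2dTAG (-0.25 to -0.16, edgeR adjusted p = 0.0794 to 0.251), and under 4 other settings.

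Vimentin was high in every group and changed little from ESC WT to NPC WT, where both cadherins changed strongly. Against WT it was higher, as Cdh2 was, in both edited ESC lines and in NPC dCD, but not in NPC MLL2dTAG. Vim was at 314, 305 and 321 CPM in the WT libraries of ESC, at 516, 504 and 502 in those of dCD and at 518, 519.8 and 506 in those of MLL2dTAG. NPC libraries held 329.8, 334 and 328 CPM in WT, 636, 581 and 582 in dCD and 291, 294 and 288 in MLL2dTAG. NPC dCD was the highest group and NPC MLL2dTAG the lowest. In WT the change from ESC to NPC was 0.076 (SE 0.033, edgeR adjusted p = 0.0359), a call that was lost without replicate 2 of ESC WT (0.060, edgeR adjusted p = 0.0833), without replicate 2 of NPC WT (0.072, edgeR adjusted p = 0.0851) and with halved counts, and whose sign turned under upper quartile scaling (-0.0062) and when GC content and gene length were modelled as offsets (-0.046). In dCD Vim rose by 0.24 (SE 0.033, edgeR adjusted p = 2.82e-08) and in MLL2dTAG it was lower, at -0.82 (SE 0.033, edgeR adjusted p = 1.54e-22). Against WT it was higher in ESC by 0.69 (SE 0.033, edgeR adjusted p = 1.92e-18) in dCD and 0.71 (SE 0.033, edgeR adjusted p = 1.45e-19) in MLL2dTAG, groups that overlapped with each other. In NPC it was higher in dCD, by 0.86 (SE 0.033, edgeR adjusted p = 5.32e-22), and lower in MLL2dTAG, at -0.18 (SE 0.033, edgeR adjusted p = 8.25e-06).

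Of the 10 mesenchyme markers on the list, which holds Col1a1, Pdgfra and Twist1 but not Vim or Cdh2, 10 were called higher in ESC dCD and 10 in ESC MLL2dTAG than in ESC WT, where 25.7% and 28.7% of all genes were higher. In NPC, 8 were higher and 0 lower in dCD than in WT, and 7 higher and 3 lower in MLL2dTAG, where 26.7% and 33.3% of all genes were higher and 26.8% and 28.4% lower. From ESC WT to NPC WT 6 rose and 4 fell, against 39.1% and 40.4% of all genes. In ESC their summed level was 498 to 615 CPM for WT, 822 to 916 for dCD and 900 to 959 for MLL2dTAG. In NPC it was 754 to 774 CPM in WT, 1447 to 1563 in dCD and 1323 to 1337 in MLL2dTAG, and none of the 10 was at 0 in any group. Most of the difference in the sum between NPC dCD and NPC WT came from the actin gene Acta2, named after its values were seen. It was at 541 ± 16.1 CPM in NPC dCD against 40.5 ± 0.595 in NPC WT. The median log2 fold change of the 10 markers in NPC dCD against WT was 0.50. In NPC MLL2dTAG more of the sum came from the collagen gene Col3a1, at 716 ± 6.60 CPM against 295 ± 9.98 in NPC WT, than from the other 9 together. The collagen genes Col1a1, at 99.8 ± 3.47 against 156 ± 7.33 CPM, and Col1a2, at 21.3 ± 1.74 against 153 ± 1.80, were called lower there, and these 3 were chosen after their values were seen. The part of cells with these markers in the levels of Vim and Cdh2 was not tested. Pluripotent cell markers summed to 23.8 to 24.6 CPM in NPC WT, 39.9 to 42.9 in NPC dCD and 161 to 163 in NPC MLL2dTAG, the group with the lowest Cdh1 and Epcam.

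**Figure D3:**
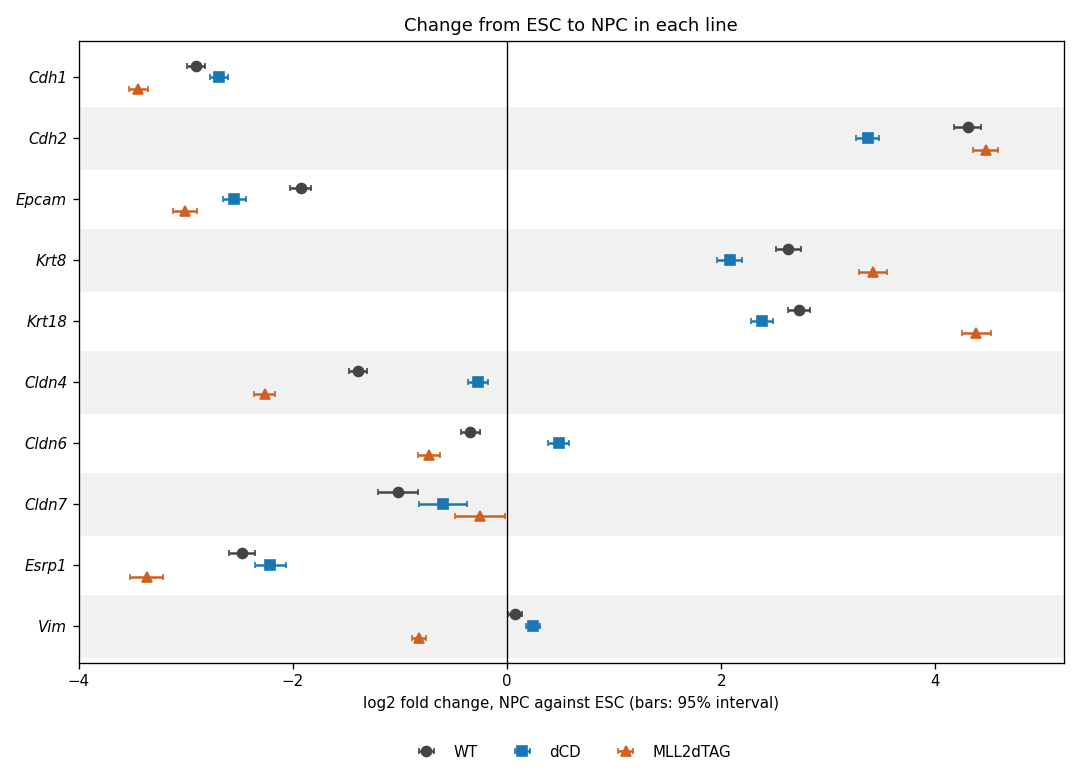
Points are log2 fold changes from ESC to NPC in WT (circles), dCD (squares) and MLL2dTAG (triangles), with 95% intervals as bars. Cdh1, Epcam and Esrp1 were far below 0 and Cdh2, Krt8 and Krt18 far above 0 in all 3 lines, while Cldn6 and Vim rose in dCD and fell in MLL2dTAG.

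Set side by side, the comparisons of each edited line with WT gave mostly lower epithelial genes and higher Cdh2. Both lines are compared with the same WT libraries, so their changes are not independent. In ESC dCD, 3 of the 10 genes were called higher (Cdh2, Krt8 and Vim), 6 lower and 1 neither, where 25.7% of all genes were called higher and 22.6% lower. In ESC MLL2dTAG, 2 were higher (Cdh2 and Vim) and 8 lower, against 28.7% and 28.2% of all genes. In NPC dCD, 2 were higher (Cdh2 and Vim) and 8 lower, against 26.7% and 26.8%. In NPC MLL2dTAG, Cdh2 alone was higher and 9 were lower, against 33.3% and 28.4%. The medians over the 10 genes were -0.41 and -0.98 in ESC dCD and MLL2dTAG and -0.35 and -1.32 in NPC dCD and MLL2dTAG. The medians over all genes were 0.023, -0.0011, -0.017 and 0.028 in the same order.

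**Figure D4:**
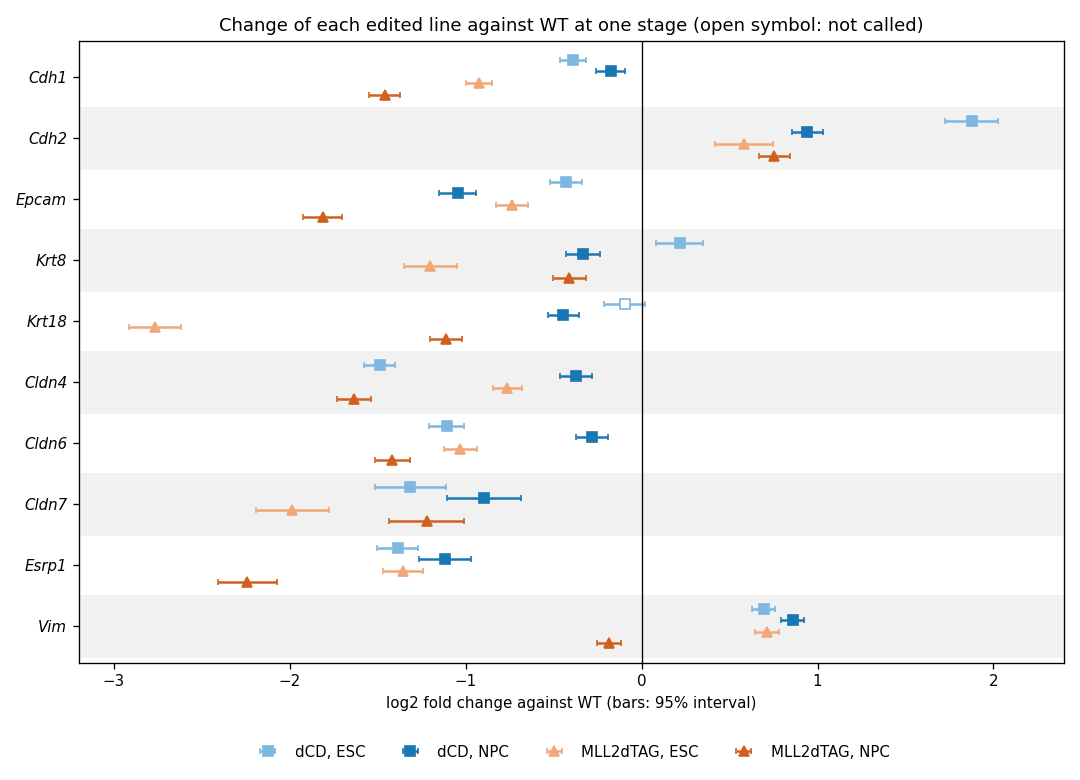
Points are log2 fold changes against WT of the same stage with 95% intervals, in dCD (squares) and MLL2dTAG (triangles), pale for ESC and dark for NPC; an open symbol was not called. Cdh2 was above 0 in all 4 comparisons and Epcam, Esrp1, Cdh1 and the 3 claudins were below 0 in all 4.

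The direct comparison of the edited lines uses no WT library. In ESC, 6 genes were called higher in dCD than in MLL2dTAG, Cldn4 was lower and 3 were not called (Cldn6, Esrp1 and Vim), where 23.7% of all genes were higher and 23.4% lower. Vim was called lower in dCD when GC content and gene length were modelled as offsets (-0.10, edgeR adjusted p = 0.00754) and when the replicate block was added to them (-0.10, edgeR adjusted p = 0.00674). Krt18 showed the largest difference, 2.67 (SE 0.075, edgeR adjusted p = 1.43e-25), followed by Krt8 at 1.42 (SE 0.073, edgeR adjusted p = 4.69e-18) and Cdh2 at 1.29 (SE 0.065, edgeR adjusted p = 2.84e-18). In NPC, 9 genes were higher in dCD, 0 lower and 1 not called, against 24.3% and 31.6% of all genes. The gene not called was Krt8, at 0.078 (SE 0.048, edgeR adjusted p = 0.173) with a 95% interval of -0.020 to 0.18. It was called under 3 other settings (upper quartile scaling, no filter, a fit of the 2 groups compared alone), at 0.13 to 0.16. The median over the 10 genes was 0.42 in ESC and 0.91 in NPC, against 0.0090 and -0.052 over all genes. The call of Cldn7 in NPC, at 0.32 (SE 0.11), had overlapping libraries and was lost without replicate 1 or 3 of NPC dCD or replicate 3 of NPC MLL2dTAG (0.23 to 0.27, edgeR adjusted p = 0.0745 to 0.118).

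Whether the change of a line against WT differed between the stages was tested as an interaction. In dCD all 10 genes were called, 6 with a higher and 4 with a lower change in NPC, where 42.9% of all genes were called in either direction. In MLL2dTAG 9 were called, 3 higher and 6 lower, where 49.0% of all genes were called. The exception was Cdh2, at 0.17 (SE 0.093, edgeR adjusted p = 0.136) with a 95% interval of -0.020 to 0.36. For Cdh2 in dCD the excess over WT was smaller in NPC, at -0.93 (SE 0.087, edgeR adjusted p = 4.67e-11). Cldn4 had the largest positive difference in dCD, 1.12 (SE 0.062, edgeR adjusted p = 7.85e-17), and Krt18 the largest in MLL2dTAG, 1.66 (SE 0.089, edgeR adjusted p = 1.47e-17), where the deficit was smaller in NPC than in ESC. Cldn7 and Esrp1 in dCD, at 0.42 (SE 0.14, edgeR adjusted p = 0.0184) and 0.27 (SE 0.094, edgeR adjusted p = 0.0189), lost their calls when single libraries were left out. For Cldn7 these were replicates 1 and 3 of NPC dCD (0.36 and 0.34, edgeR adjusted p = 0.0616 and 0.0823). For Esrp1 they were replicate 3 of ESC dCD, replicate 3 of NPC WT and replicates 2 and 3 of NPC dCD (0.22 to 0.25, edgeR adjusted p = 0.0502 to 0.093).

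The partners of the cadherins at the adherens junction, 10 genes, were divided on differentiation of WT, with 5 higher and 5 lower and a median of -0.16, where 39.1% of all genes were higher and 40.4% lower. Ctnnb1 (beta-catenin), which binds the tail of both cadherins and was named after its values were seen, was at 764 ± 25.1 CPM in ESC WT and 964 ± 9.74 in NPC WT, and so changed far less than either cadherin. Among those called, Ctnna2, the neural alpha-catenin, rose most (4.38, SE 0.22) and Afdn fell most (-0.72, SE 0.035). In ESC MLL2dTAG 3 partners were higher and 3 lower than in WT, where 28.7% of all genes were higher and 28.2% lower. In NPC MLL2dTAG 8 were higher and 2 lower, where these shares were 33.3% and 28.4%. In dCD 5 partners were higher and 4 lower than in WT in ESC, and 7 were higher and 1 lower in NPC. The shares of all genes were 25.7% and 22.6% in ESC and 26.7% and 26.8% in NPC. The epithelial alpha-catenin Ctnna1 had the largest fall of the list in MLL2dTAG against WT, at -0.74 (SE 0.030, edgeR adjusted p = 3.69e-21) in ESC and -0.59 (SE 0.030, edgeR adjusted p = 1.17e-18) in NPC. Ctnna2 was lower in NPC MLL2dTAG too, at 6.42 ± 0.127 CPM against 9.64 ± 0.390 in NPC WT. Of 9 other classical cadherins tested, 7 rose and 1 fell from ESC WT to NPC WT, with a median of 3.19. Of all genes, 39.1% rose and 40.4% fell in this comparison. Cdh6 rose most, from 0.563 ± 0.211 to 98.9 ± 2.74 CPM, and Cdh3 (P-cadherin) fell, at -0.28 (SE 0.048). In ESC dCD 3 of the 9 were higher and 1 lower than in WT, where 25.7% of all genes were higher and 22.6% lower. In ESC MLL2dTAG 4 were higher and 2 lower (median -0.087), where these shares were 28.7% and 28.2%. Cdh11, a mesenchymal cadherin, was called higher in both edited ESC lines, at 9.82 ± 0.469 CPM in WT, 37.1 ± 5.01 in dCD and 38.0 ± 0.770 in MLL2dTAG, with changes of 1.91 (SE 0.076, edgeR adjusted p = 1.18e-20) and 1.95 (SE 0.073, edgeR adjusted p = 4.32e-22). It had the largest rise of the list in ESC dCD but not in ESC MLL2dTAG, where it was named after its values were seen. Cdh3 had the largest fall of the list in both edited ESC lines, at -1.14 (SE 0.052, edgeR adjusted p = 4.33e-19) in dCD and -1.89 (SE 0.054, edgeR adjusted p = 1.42e-25) in MLL2dTAG.

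Tight junction genes other than the 3 claudins, 15 in number, were mostly lower in the edited lines. In ESC, 10 were called lower and 1 higher in dCD (median -0.68), where 22.6% of all genes were lower and 25.7% higher, and 11 lower and 1 higher in MLL2dTAG (median -1.12), where these shares were 28.2% and 28.7%. In NPC the counts were 10 lower and 3 higher in dCD (median -0.38) and 12 lower and 2 higher in MLL2dTAG (median -1.06), where 26.8% and 28.4% of all genes were lower and 26.7% and 33.3% higher. From ESC WT to NPC WT, 8 fell and 4 rose (median -0.35), against 40.4% and 39.1% of all genes. The polarity gene Crb3 fell most in ESC dCD (-1.60, SE 0.11, edgeR adjusted p = 3.5e-14), and the tricellular junction gene Marveld2 fell most in ESC MLL2dTAG (-2.73, SE 0.14, edgeR adjusted p = 6.5e-18). Cldn9 fell most in NPC dCD (-1.76, SE 0.27, edgeR adjusted p = 6.85e-07) and Marveld3 in NPC MLL2dTAG (-3.75, SE 0.34, edgeR adjusted p = 6.5e-12). Of 8 desmosome genes, 5 fell and 2 rose in differentiation of WT (median -1.03), where 40.4% of all genes fell and 39.1% rose. In ESC dCD 4 were lower and 1 higher than in WT, where 22.6% of all genes were lower and 25.7% higher. Dsp, which ties desmosomes to keratin filaments, had the largest fall there (-1.02, SE 0.056, edgeR adjusted p = 7.17e-17). On differentiation of WT Dsp was higher, at 81.2 ± 8.57 CPM in ESC and 167 ± 4.16 in NPC. In ESC MLL2dTAG 3 of the 8 desmosome genes were lower and 2 higher than in WT, where 28.2% of all genes were lower and 28.7% higher. In NPC 1 was lower and 2 higher in dCD, and 5 were lower and 2 higher in MLL2dTAG. In those comparisons 26.8% and 28.4% of all genes were lower and 26.7% and 33.3% higher.

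The 15 epithelial regulators, which hold transcription factors, proteases and Esrp2, were mostly lower in NPC WT, with 10 lower, 2 higher and a median of -1.56, where 40.4% of all genes were lower and 39.1% higher. Grhl3, a Grainyhead factor of epithelia, fell most, from 44.8 ± 1.65 to 2.93 ± 0.512 CPM. In the edited lines they did not move as one. In ESC, 10 were lower and 1 higher in dCD (median -0.45), and 5 lower and 7 higher in MLL2dTAG (median 0.10), against 22.6% and 28.2% of all genes lower and 25.7% and 28.7% higher. In NPC, 6 were lower and 4 higher in dCD (median -0.090), and 5 lower and 3 higher in MLL2dTAG (median 0.043), where 26.8% and 28.4% of all genes were lower and 26.7% and 33.3% higher. The NPC counts were thus near these shares, or below them, except for the 6 lower in dCD. Klf5 had the largest rise in ESC dCD (0.70, SE 0.067, edgeR adjusted p = 8.03e-11) and in ESC MLL2dTAG (1.19, SE 0.065, edgeR adjusted p = 1.55e-17), and Ovol2, a repressor of Zeb genes, the largest fall in both, at -1.07 (SE 0.21, edgeR adjusted p = 7.67e-05) and -1.21 (SE 0.21, edgeR adjusted p = 6.33e-06).

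Of the 9 transcription factors of the epithelial-mesenchymal transition, 7 rose and 2 fell from ESC WT to NPC WT, with a median of 1.90, where 39.1% of all genes rose and 40.4% fell. In ESC, 7 were higher and 0 lower in dCD (median 0.99), and 8 higher and 1 lower in MLL2dTAG (median 1.10). Of all genes, 25.7% and 28.7% were higher there and 22.6% and 28.2% lower. Some of the factors were low in ESC WT, such as Foxc2 at 0.557 ± 0.0962 CPM and Twist2 at 0.624 ± 0.153, named after their values were seen. Zeb1, named after its values were seen, was at 22.8 ± 1.5 CPM in ESC of WT, 53.0 ± 1.60 of dCD and 53.8 ± 3.11 of MLL2dTAG, with changes of 1.21 (SE 0.053, edgeR adjusted p = 1.56e-19) and 1.23 (SE 0.052, edgeR adjusted p = 8.96e-21). In NPC it was at 131 ± 0.856 CPM in WT, 129.8 ± 4.08 in dCD and 157 ± 3.81 in MLL2dTAG. Zeb2 had the largest rise of the list in ESC dCD (1.30, SE 0.083, edgeR adjusted p = 2.77e-15), NPC dCD (1.37, SE 0.050, edgeR adjusted p = 1.11e-22) and NPC MLL2dTAG (0.86, SE 0.050, edgeR adjusted p = 3.73e-17). In NPC, 4 were higher and 2 lower in dCD (median -0.014), and 6 higher and 2 lower in MLL2dTAG (median 0.42), where 26.7% and 33.3% of all genes were higher and 26.8% and 28.4% lower. In NPC dCD Snai1 fell (-0.50, SE 0.12, edgeR adjusted p = 0.000482), and in NPC MLL2dTAG Prrx1 fell most (-1.56, SE 0.11, edgeR adjusted p = 2.9e-14). Prrx1 and Twist1 are also on the mesenchyme list and Snai2 is also on that of the neural crest, whose 6 markers summed in ESC to 22.5 to 25.5 CPM for WT, 38.1 to 39.1 for dCD and 38.6 to 40 for MLL2dTAG.

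**Figure D5:**
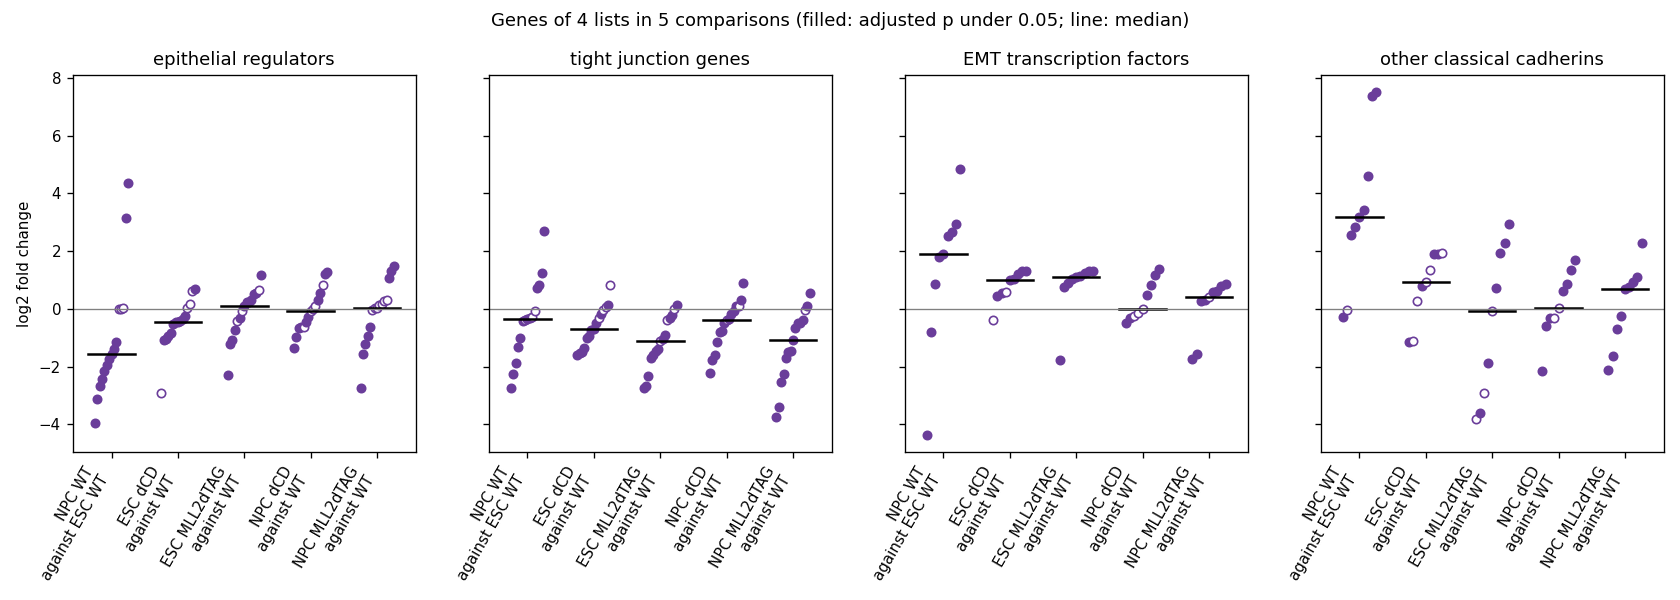
Each point is the log2 fold change of 1 gene in 1 of 5 comparisons, filled where the edgeR adjusted p was under 0.05, with the median of the list as a line. In ESC the tight junction genes lay mostly below 0 and the transcription factors mostly above 0 in both edited lines.

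Over the 18 libraries the 2 genes most like each member were taken by Pearson's r of log2 CPM among 11795 genes. For Cdh1 they were Csrp2 and Dtd1 (r = 0.993 for both), and for Cdh2 Arhgap42 (0.995) and Cplx2 (0.995). Those of Epcam were Dhdh (0.995) and Pkm (0.994), and Esrp1 was closest to Pgk1 (0.996). Krt8 was closest to Arnt2 (0.997) and Satb1 (0.995), and Krt18 to Hdgfrp3 (0.996) and Isoc1 (0.995). For the claudins they were Eml2 (0.98) and Capn5 (0.97) with Cldn4, Camta1 (0.956) and Bbs4 (0.949) with Cldn6, and Rragb (0.951) and Arhgef16 (0.944) with Cldn7. Vim was closest to Fzd10 (0.949) and Vegfc (0.948). The points share 2 stages that differ in most genes, so that high values are common. By Spearman's rho other genes led in most cases, such as Camkv for Cdh1 (0.984) and Wls for Cdh2 (0.992).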

How the data were processed

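The table that the authors deposited holds raw counts of reads by gene symbol, which were used without change. Per the labels' protocols, the library kit was TruSeq Stranded mRNA. The genome build, the aligner, the counter and its strand setting are not given in the sources used here. Of 36 samples, 18 in 6 groups of 3 were used. A further 6 columns of the same table carry names that fit more than 1 sample, and the 12 columns of another table carry names that match no label, so neither was used here. All 37 mitochondrial genes had 0 counts. Even numbers made up 60.8% to 66.5% of the counts from 1 to 10, so halved counts were run as an alternative. Over 18 pairs of replicate libraries the chi-square per degree of freedom was 2.19 to 10.5, largest in pairs with replicate 2 of ESC WT, and no pair was identical.

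The analysis used edgeR 4.0.16 in R 4.3.3. The function filterByExpr left 20511 genes, libraries were scaled with TMM factors (0.967 to 1.05), and all 18 libraries entered one quasi-likelihood fit with a mean for each group (12 residual degrees of freedom, biological coefficient of variation 4.01%). The two-sided quasi-likelihood F test was adjusted by Benjamini-Hochberg over all genes tested, and a gene was called at an adjusted p under 0.05. The SE of a log2 fold change was taken from the change and its F statistic. Levels are CPM on TMM-scaled totals, and levels per kilobase use the union of a gene's exons. For ratios within a library, 0.5 counts were added to each gene and an exact permutation test was used. Before use the model was run on counts simulated from its own estimates of the spread, with known changes in a small set of genes. That run does not test the scaling or the spread in these data, where many more genes were called. Reads are not independent molecules, so floors cover counting error only. The 95% intervals of log2 fold changes come from the fit and cover the spread between libraries.

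The 10 genes, the lists of related genes and the tests were chosen with earlier results of these data known. From each list the called gene with the largest rise and that with the largest fall were named, where the mean of the groups compared was at least 1 CPM. For each of the 10 genes the 2 most alike by Pearson's r were named, among those that averaged at least 5 CPM. Other names are said to be chosen after their values were seen, and Cdh11 was followed into MLL2dTAG in the same way. A few genes that these rules name are not reported here. The alternatives were RLE and upper quartile scaling, DESeq2 1.42.0, no filter, a fit of the groups compared only, a replicate block, halved counts, offsets for GC content and length (held for 95.8% of the genes tested), and leaving out each library in turn.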

Additional observations from a re-analysis of the deposited data

Results flagged for a closer look

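The change of an edited line against WT differed between NPC and ESC in 19 of 20 tests on the 10 genes, by the interaction in the edgeR model at an adjusted p under 0.05. Values are log2, the change in NPC minus the change in ESC. Among all genes 42.9% were called for dCD and 49.0% for MLL2dTAG, so that such a call was common. The MLL2dTAG value for Cdh2, at 0.17, was the one not called.

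The cadherins and Epcam gave 0.22 (dCD) and -0.54 (MLL2dTAG) for Cdh1, -0.93 (dCD) for Cdh2, and -0.62 (dCD) and -1.08 (MLL2dTAG) for Epcam. The keratins differed in sign between the lines, with -0.55 (dCD) and 0.79 (MLL2dTAG) for Krt8 and -0.35 (dCD) and 1.66 (MLL2dTAG) for Krt18. Cldn4, at 1.12 (dCD) and -0.87 (MLL2dTAG), and Cldn6, at 0.83 (dCD) and -0.39 (MLL2dTAG), differed the other way. Cldn7 was positive in both, at 0.42 (dCD) and 0.76 (MLL2dTAG). Esrp1 gave 0.27 (dCD) and -0.89 (MLL2dTAG), and Vim gave 0.17 (dCD) and -0.90 (MLL2dTAG). The difference between the dCD and MLL2dTAG interactions was not tested.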

How the results depend on the processing

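Over 990 values of the 10 genes under other settings, 974 kept their direction and their side of the threshold, 6 lost the call, 5 gained it and 5 turned in direction. Over 780 values with 1 library left out, 762 kept both, 17 lost the call, 1 gained it and 0 turned. The turns were small. Vim from ESC WT to NPC WT turned under upper quartile scaling (-0.0062), under offsets for GC content and length (-0.046) and under the replicate block with those offsets (-0.046). With upper quartile scaling, dCD minus MLL2dTAG in ESC turned for Esrp1 (0.021) and Vim (0.032), neither called there nor in the main fit. The cause was not tested. The count of all genes called stayed within 0.891 to 1.07 times the main count. Same-numbered libraries of 2 groups did not deviate together (correlations of -0.028 to 0.032 over 15 pairs of groups), so no pairing by number was seen. The correlations ran over all genes tested, those with low counts included, so a weak pairing could be missed. The replicate block moved the count from 16302 to 16181 genes for NPC WT against ESC WT and from 9909 to 9701 for ESC dCD against WT, and ended 1 call, that of Cldn7 in NPC MLL2dTAG against ESC MLL2dTAG (-0.25, edgeR adjusted p = 0.0587). Each group holds 3 libraries of 1 line, which limits what a difference between lines can show.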
